A study of Drosophila melanogaster with 35 samples.

Results

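Replication timing was described at 8 genes that pattern the Drosophila melanogaster wing imaginal disc, the larval epithelium that gives rise to the adult wing and notum: wg, dpp, salm, salr, nub, ara, caup and mirr. For each gene, the 100-kb window of the deposited timing profile whose midpoint lies nearest the gene's midpoint on dm6 (release 6 of the genome) was taken, which gave 8 of 13391 windows for 8 of 23973 annotated genes on the 6 major scaffolds. The genes were chosen by name and by no timing value, but earlier results of these data were known when the choice was made. All 8 windows lie on 2L or 3L, outside pericentric heterochromatin and chromosome 4, among 11440 windows called arm windows here. The 8 genes form 5 loci, since salm and salr are neighbors whose windows share 30.0 kb, the windows of ara and caup share 70.0 kb and those of caup and mirr share 20.0 kb, so these values are not independent of one another.

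The study sequenced DNA of sorted S phase nuclei from 2 tissues of females and compared read depth with that of G1 nuclei, so that early-replicating sequence gives a higher log2 S/G1 ratio. Endocycling follicle cells (4C to 8C DNA content, adult ovary) came from Rif1[1]/Rif1[2] flies, called Rif1- and described as null, and from the wild-type strain OregonR. Mitotic follicle cells (2C to 4C, adult ovary) came from Rif1-, from Rif1[PP1]/Rif1[1] flies, called Rif1PP1, in which the motif of Rif1 that binds the phosphatase PP1 is mutated, from the heterozygote Rif1[2]/CyO, called Rif1-/+, and from OregonR. Wing discs of larvae of the last instar (2C to 4C) came from Rif1-, Rif1PP1 and the wild-type strain yw. Rif1 is a chromatin protein known for delaying the replication of late regions. The 2C to 4C fraction of ovaries is not pure, because follicle cells in their first endocycle have the same DNA content, and CyO, the chromosome 2 balancer of the heterozygote, carries its own copy of the 5 members on 2L. Each of the 9 conditions has 1 value per window, the authors' mean of 2 S phase samples. No replicate values, depth or counts come with it, so no difference below has a replicate check, a p-value or an interval, and no difference can be set against the spread between samples.

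In the wing disc, position is given by a few diffusible ligands and by the transcription factors that read them. Wg, a Wnt protein, marks the boundary between dorsal and ventral cells, and Dpp, a BMP, is made along the boundary between anterior and posterior cells. Both spread into the pouch, where their levels set the domains of target genes, such as the zinc-finger genes salm and salr for Dpp. Nub, a POU domain factor, marks the wing pouch and hinge, and the Iroquois homeodomain genes ara, caup and mirr specify the notum and prepattern veins and bristles. In the ovary, mirr is known for patterning dorsal anterior follicle cells and dpp is made by anterior follicle cells, whereas the other members are best known for roles outside the follicular epithelium. Timing was read from DNA, and RNA of these genes was not analysed here.

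Timing is given as the deposited log2 S/G1 ratio and as its percentile among arm windows of the same condition, where 0 is the latest and 100 the earliest. A difference between 2 conditions is the first-named minus the second on the log2 scale, after the 2 profiles were quantile normalized to each other, and is called past the threshold beyond 0.1 in either direction. This is a cutoff of size, not a test.

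The tissue labels were checked at the chorion genes Cp18 and Cp36, which follicle cells amplify late in oogenesis. Cp18 stood at 0.44 to 1.4 (log2 S/G1) in the 6 follicle cell conditions and at 0.11 to 0.15 in the 3 wing disc conditions, and Cp36 at 0.18 to 0.57 in follicle cells and at -0.031 to 0.048 in wing discs, so the ranges of the tissues did not overlap at either gene. In percentiles among arm windows Cp18 was high in both tissues, at 99.4 to 99.9 in follicle cells and 96.3 to 98.5 in wing discs. Whether amplification accounts for the values in the fractions sorted here was not tested. A 100-kb window does not check the alleles of Rif1, a gene of 4.84 kb. Between the wild-type tissues, strain, library kit (NEBNext Ultra II for follicle cells, ThruPLEX for wing discs) and sequencer changed together with tissue, and their parts in a difference cannot be told apart. The paper names G1 nuclei of wing discs as the control for all samples, and which G1 sample was used for the mutant wing discs is not given in the sources used here.

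In wild-type wing discs, all 8 genes lay in the earlier part of the arms, from the 71.8th (mirr) to the 86.2nd percentile (salr), with a median of 84.4. Under the alternative settings their percentiles in these discs ran from 62.8 (mirr) to 95.6 (nub). Single windows that overlap a gene ran from the 36.6th (dpp) to the 98.2nd percentile (wg), so the band was narrow only at the chosen windows. The log2 S/G1 ratios of the chosen windows ran from 0.061 to 0.083, against an arm median of 0.026 in the same discs. The order was salr, caup, wg, nub, salm, dpp, ara and mirr. In wild-type mitotic follicle cells, the same windows ran from the 16.9th (wg) to the 85.2nd percentile (mirr), with a median of 44.8, and 3 of 8 (mirr, salm and nub) lay above the 50th. In wild-type endocycling follicle cells they ran from the 10.2nd (wg) to the 89.4th (mirr), with a median of 38.4 and 2 of 8 (mirr and salm) above the 50th. Counted over the 5 loci, with neighbors averaged, the medians were 41.0, 50.2 and 84.8 in wild-type endocycling follicle cells, mitotic follicle cells and wing discs.

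**Figure D1:**
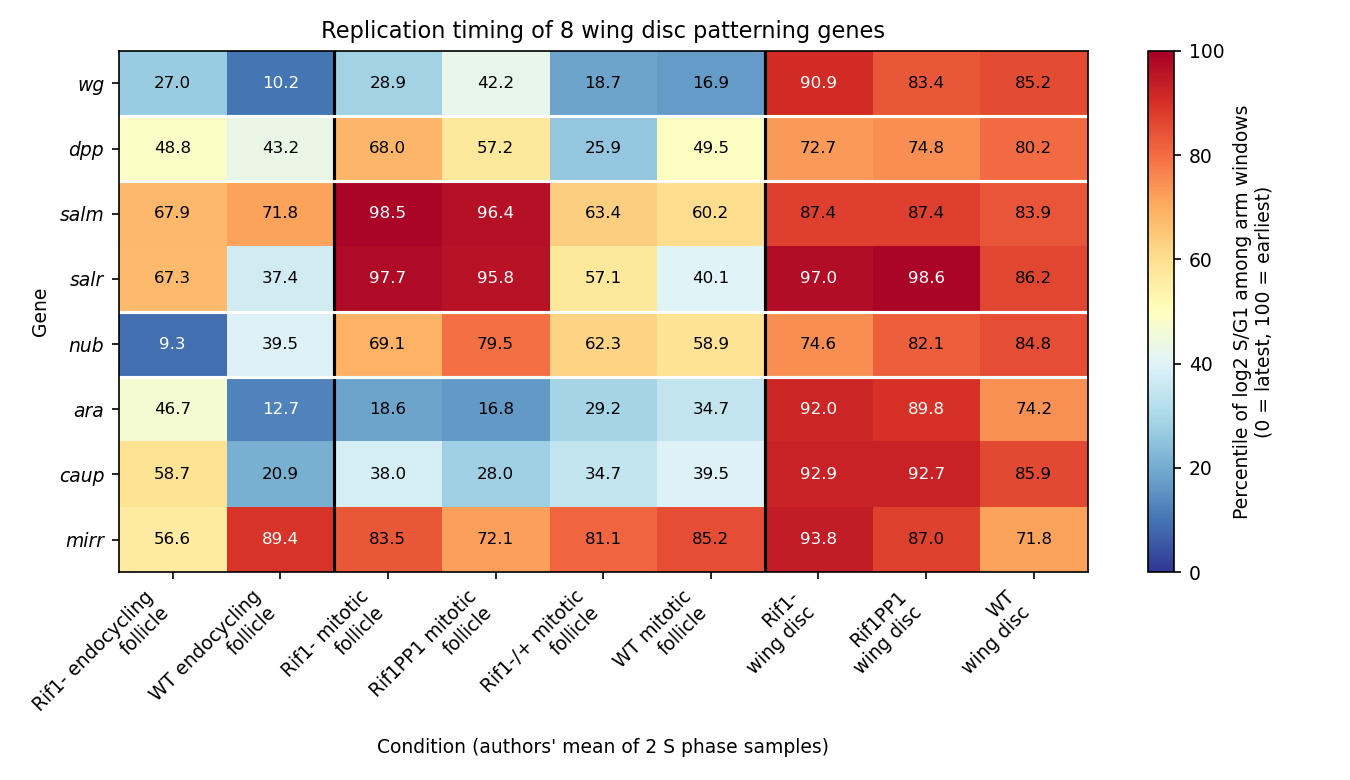
Percentile of the log2 S/G1 ratio among arm windows for each gene (rows) in each condition (columns, endocycling follicle cells, mitotic follicle cells and wing discs from left to right, mutants before wild type), 1 authors' mean of 2 S phase samples per cell, red early and blue late. The 3 wing disc columns hold no value under 71.8, whereas the 6 follicle cell columns hold values from 9.3 to 98.5, with wg, ara and caup late in most of them and mirr early.

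The largest difference between the wild-type tissues among the 8 was at wg, which lies at chr2L:7307159-7316265 (plus strand, 9.11 kb, FBgn0284084). The wg window had -0.069 log2 S/G1 (16.9th percentile) in mitotic follicle cells, against 0.081 (85.2nd) in wing discs, a normalized difference of -0.18. It was thus late in one tissue and early in the other. It belonged to a run of 16 windows over 250.0 kb (chr2L:7200001-7450000) that were all later in follicle cells by over 0.1, with the deepest at -0.24, 30.0 kb beyond the wg window. The run holds 25 protein-coding genes, among them Wnt4, Wnt6 and Wnt10, the other Wnt ligand genes of this cluster. Wnt6 stood at the 33.2nd percentile in mitotic follicle cells and the 98.2nd in wing discs, and Wnt10, 60.0 kb from the wg window, at the 54.8th in mitotic follicle cells and the 98.1st in wing discs. Wnt4, on the other side of wg, stood at the 19.0th percentile in mitotic follicle cells and the 68.7th in wing discs. Within the cluster, percentiles in follicle cells were thus low at Wnt4 and wg and near the middle at Wnt10, and in wing discs they were highest at Wnt6 and Wnt10 and lowest at Wnt4.

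wg lay below the 50th percentile in the 6 follicle cell conditions and above it in the 3 wing disc conditions, although under the alternative settings it reached 53.5 in Rif1PP1 mitotic follicle cells. Its percentile was 27.0 in Rif1- and 10.2 in wild-type endocycling follicle cells. In mitotic follicle cells it was 28.9 in Rif1-, 42.2 in Rif1PP1, 18.7 in Rif1-/+ and 16.9 in wild type. In wing discs it was 90.9 in Rif1-, 83.4 in Rif1PP1 and 85.2 in wild type. The 6 follicle cell values all lay below the 3 wing disc values, a separation that dpp, ara and caup shared, as given below. At dpp it was narrow and was not kept under the alternative settings. There dpp reached 69.8 in Rif1- mitotic follicle cells and fell to 60.1 in Rif1PP1 wing discs.

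dpp, at chr2L:2428372-2459823 (plus strand, 31.5 kb, FBgn0000490), lay near a local peak of early timing in wing discs and beside a lower local peak in mitotic follicle cells. Its window had 0.021 log2 S/G1 (49.5th percentile) in mitotic follicle cells and 0.074 (80.2nd) in wing discs, a normalized difference of -0.071 that did not pass the threshold. Within 400 kb on either side, the wild-type wing disc profile ran from the 12.7th percentile, at -98.4 kb from the dpp start, to the 98.7th, at -248 kb. The wild-type mitotic follicle cell profile of the same stretch ran from the 16.3rd to the 79.5th. The follicle peak at dpp, 50.1, was close to the middle of the arms. The percentile of dpp was 48.8 in Rif1- and 43.2 in wild-type endocycling follicle cells. In mitotic follicle cells it was 68.0 in Rif1-, 57.2 in Rif1PP1, 25.9 in Rif1-/+ and 49.5 in wild type, and in wing discs 72.7 in Rif1-, 74.8 in Rif1PP1 and 80.2 in wild type. dpp was thereby the lowest of the 8 in both mutant wing discs, though above the 70th percentile in each.

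The spalt genes lie tail to tail, salm at chr2L:11434311-11445614 (minus strand, FBgn0261648) and salr at chr2L:11358873-11373636 (plus strand, FBgn0000287). In the wild-type tissues salm had 0.046 log2 S/G1 (60.2nd percentile) in mitotic follicle cells and 0.079 (83.9th) in wing discs, a normalized difference of -0.058. salr had -0.00057 (40.1st) in mitotic follicle cells and 0.083 (86.2nd) in wing discs, a normalized difference of -0.11. Only salr of the pair passed the threshold, and the 2 genes differed from each other by 20.1 percentile points in wild-type mitotic follicle cells and by -2.23 (salm minus salr) in wild-type wing discs. The salr run was short, 4 windows over 130 kb that hold CG14926 and salr. In both tissues the windows beyond salm, away from salr, turned late: the wild-type profile reached the 0.913th percentile 204 kb beyond the salm start in mitotic follicle cells and the 3.08th percentile 264 kb beyond it in wing discs.

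nub, at chr2L:12587625-12628135 (plus strand, 40.5 kb, FBgn0085424), had 0.043 log2 S/G1 (58.9th percentile) in mitotic follicle cells and 0.081 (84.8th) in wing discs, a normalized difference of -0.063. In wing discs nub was the earliest point of its surroundings, since the highest percentile within 400 kb of the gene, 95.3, fell 12.4 kb past its start and the lowest, 0.983, at -348 kb from it. In mitotic follicle cells the highest, 99.6, fell 222 kb past the start, and nub lay lower than windows on either side of it, such as the 79.0th percentile at -128 kb from the start. Its neighbor pdm2, a related POU factor gene 60.0 kb away, stood at the 72.9th percentile in mitotic follicle cells and the 63.2nd in wing discs, so the 2 neighbors were ordered differently in the 2 tissues.

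The Iroquois genes share a complex on 3L, in the order ara (chr3L:12580672-12596018, FBgn0015904), caup (chr3L:12609631-12621798, FBgn0015919) and mirr (chr3L:12693639-12710249, FBgn0014343), all on the plus strand. ara had -0.014 log2 S/G1 (34.7th percentile) in mitotic follicle cells and 0.065 (74.2nd) in wing discs, a normalized difference of -0.090. caup had -0.0018 (39.5th) in mitotic follicle cells and 0.083 (85.9th) in wing discs, a normalized difference of -0.11. mirr had 0.12 (85.2nd) in mitotic follicle cells and 0.061 (71.8th) in wing discs, a normalized difference of 0.026. mirr was thus the only one of the 8 that was not later in follicle cells, although its difference lay within the threshold and changed sign, to no lower than -0.0032, in 2 of 6 alternative settings.

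The complex was therefore split in follicle cells and not in wing discs. In wild-type endocycling follicle cells mirr lay 76.8 percentile points above ara and 68.6 above caup. In wild-type mitotic follicle cells it lay 50.4 points above ara and 45.6 above caup. In wild-type wing discs mirr lay slightly lower, at -2.42 points from ara and -14.1 from caup. The windows of ara and mirr, 110.0 kb apart, share no sequence, whereas those of ara and caup mostly overlap. The split between mirr and ara was also present in the mitotic follicle cells of each other genotype, with 64.9 points in Rif1-, 55.4 in Rif1PP1 and 51.9 in Rif1-/+. In Rif1- endocycling follicle cells the distance was 9.90 points, and in the mutant wing discs it was 1.76 (Rif1-) and -2.81 (Rif1PP1).

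**Figure D2:**
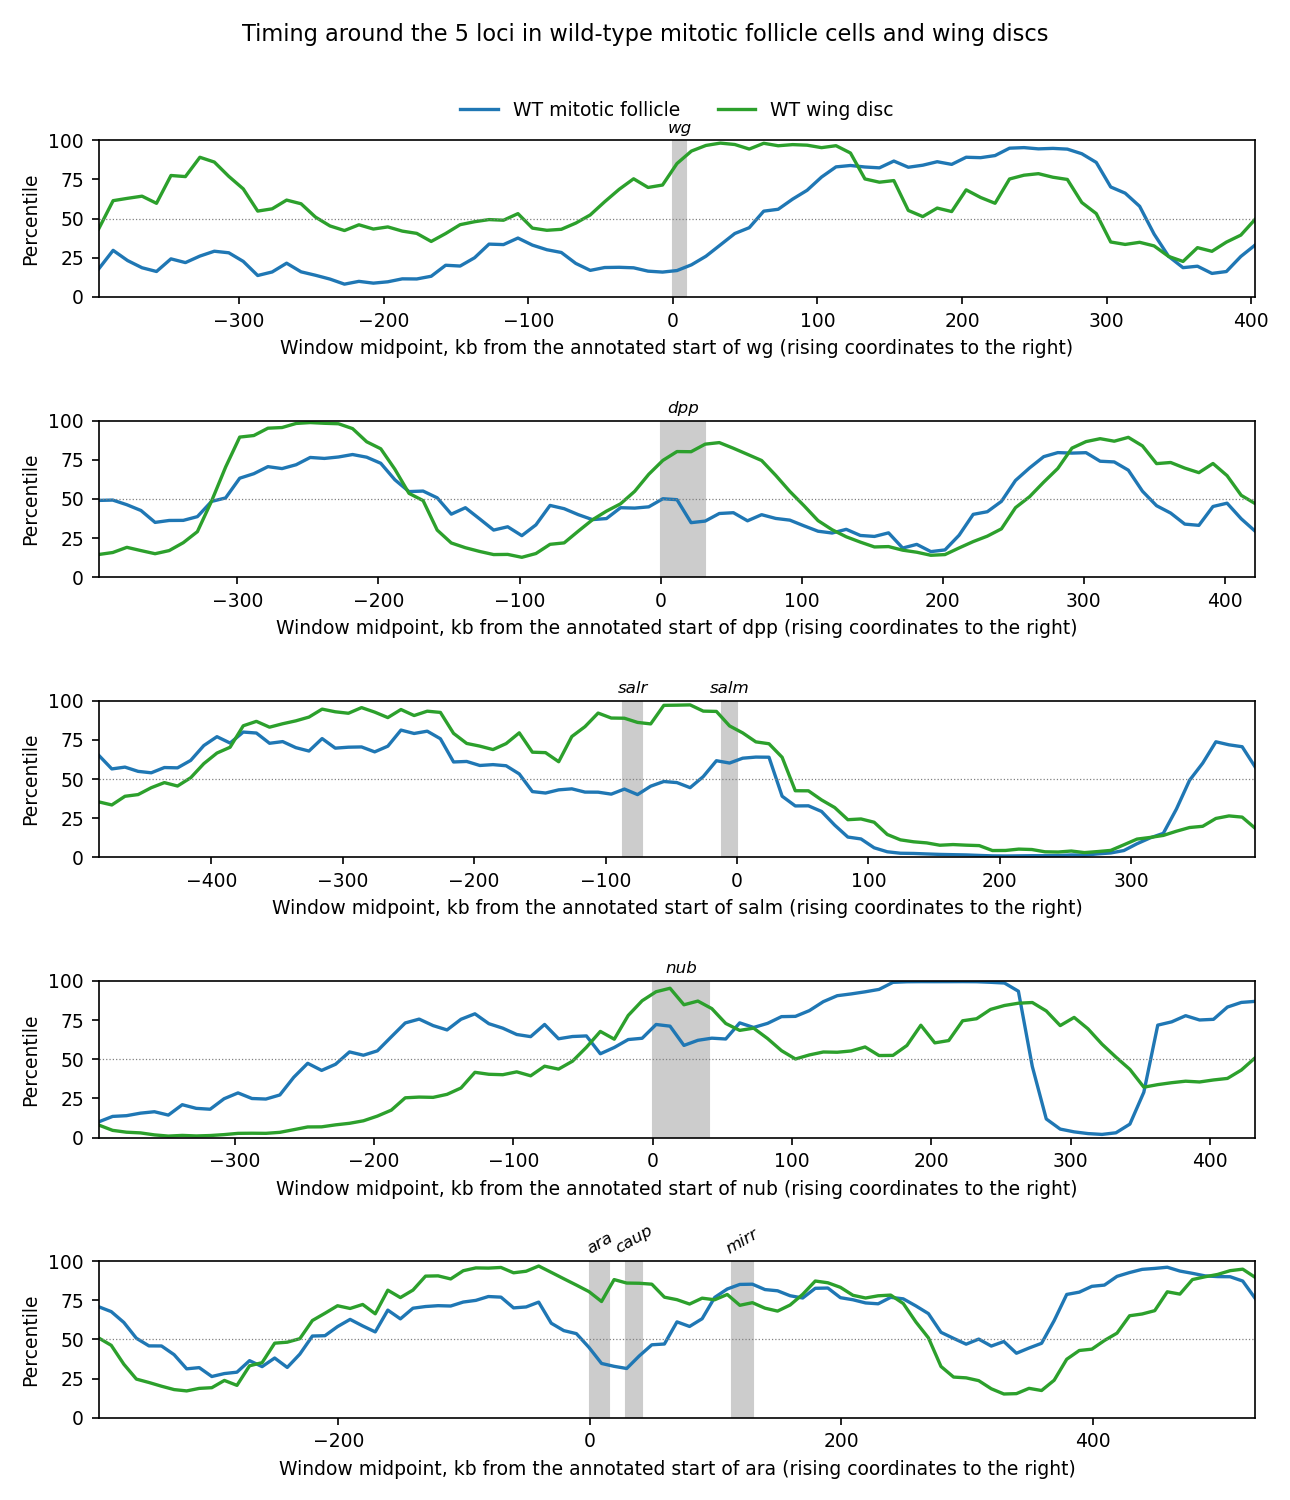
Percentile of the log2 S/G1 ratio (vertical axis) of each 100-kb window against the distance of its midpoint from the annotated start of the first-named gene of each locus in kb (horizontal axis), for wild-type mitotic follicle cells (blue) and wild-type wing discs (green), with gene bodies shaded and the 50th percentile dotted. The curves lie far apart at wg, salr, ara and caup and come together within the Iroquois complex on the way to mirr. Both drop beyond salm, to 0.913 in follicle cells and 3.08 in wing discs.

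Over the 8 genes, 7 had a negative difference between wild-type mitotic follicle cells and wing discs. The normalized difference passed the threshold at 3 of 8, wg, salr and caup, all later in follicle cells, and at 0 of 8 in the other direction. The share of arm windows past the threshold was 18.9% for later and 13.2% for earlier in follicle cells. The median difference over the 8 was -0.080, and the median over all arm windows was -0.0097. salr and caup stood just past the threshold and ara just within it. Without quantile normalization only wg passed, at -0.15, and with the trend on GC content removed from each profile ara (-0.10) and nub (-0.12) passed as well.

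Endocycling and mitotic follicle cells of wild type were compared to see whether the endocycle goes with another timing of these genes. None of the 8 passed the threshold in either direction, with 0.533% of arm windows past it for later and 0.900% for earlier in endocycling cells. The differences ran from -0.073 at ara to 0.025 at salm, with a median of -0.026, and 6 of 8 were negative. ara stood at the 12.7th percentile in endocycling and the 34.7th in mitotic cells, nub at the 39.5th in endocycling and the 58.9th in mitotic cells, and mirr at the 89.4th in endocycling and the 85.2nd in mitotic cells. The order of the 8 changed little: mirr and salm were the first 2 and ara and wg the last 2 in both fractions.

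In wing discs, none of the 8 passed the threshold in either Rif1 genotype. In Rif1- against wild type, 0 of 8 were earlier (1.74% of arm windows) and 0 of 8 later (4.49%), with differences from -0.021 (nub) to 0.050 (mirr) and a median of 0.017. In Rif1PP1 against wild type, 0 of 8 were earlier (3.65%) and 0 of 8 later (7.18%), with differences from -0.012 (dpp) to 0.050 (salr) and a median of 0.011. In percentiles, the 8 ran from 72.7 (dpp) to 97.0 (salr) in Rif1- discs and from 74.8 (dpp) to 98.6 (salr) in Rif1PP1 discs, so all stayed in the early part of the arms. The median percentile was 91.5 in Rif1-, 87.2 in Rif1PP1 and 84.4 in wild type. The log2 S/G1 ratio of salr was 0.14 in Rif1-, 0.13 in Rif1PP1 and 0.083 in wild-type discs, and with all 9 conditions normalized together its difference passed the threshold in both mutants (0.10 in Rif1- and 0.18 in Rif1PP1). mirr had 0.11 in Rif1-, 0.070 in Rif1PP1 and 0.061 in wild-type discs, which placed it at the 93.8th, 87.0th and 71.8th percentile of these discs.

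In mitotic follicle cells, the spalt pair was earlier in both Rif1 mutants. salm had 0.18 log2 S/G1 in Rif1-, 0.21 in Rif1PP1, 0.040 in Rif1-/+ and 0.046 in wild-type mitotic follicle cells. salr had 0.15 in Rif1-, 0.20 in Rif1PP1, 0.020 in Rif1-/+ and -0.00057 in wild type. Both mutants without a wild-type copy of Rif1 were thus above the heterozygote and wild type at each gene. The normalized difference of salm was 0.17 in Rif1- and 0.17 in Rif1PP1 against wild type, and that of salr was 0.18 in Rif1- and 0.20 in Rif1PP1. In Rif1- mitotic follicle cells salm stood at the 98.5th percentile and salr at the 97.7th, and in Rif1PP1 cells salm at the 96.4th and salr at the 95.8th, higher than in wild-type wing discs in each case. These calls held under each of the 6 alternative settings for differences, all with the threshold at 0.1. At a threshold of 0.2 only salr in Rif1PP1 passed.

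No other member passed the threshold in these 2 comparisons. In Rif1- against wild type, 2 of 8 were earlier (6.54% of arm windows) and 0 of 8 later (14.4%), and the remaining 6 ran from -0.055 (ara) to 0.029 (dpp). In Rif1PP1 against wild type, 2 of 8 were earlier (11.0%) and 0 of 8 later (17.0%), and the remaining 6 ran from -0.074 (ara) to 0.067 (wg). The 2 earlier genes are neighbors and count as 1 locus of 5. Both comparisons have the same wild-type samples as reference, and Rif1PP1 flies carry the Rif1[1] allele that Rif1- flies also carry, so their values do not stand for independent observations.

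The spalt genes lay at one side of a longer stretch that was earlier in the mutants. In Rif1- mitotic follicle cells, 59 consecutive windows over 680.0 kb (chr2L:11230001-11910000) were each earlier by over 0.1, with a mean of 0.20, and the largest difference, 0.32, fell 230.0 kb beyond the salm window. In Rif1PP1 cells the stretch had 65 windows over 740.0 kb (chr2L:11230001-11970000), with a mean of 0.24 and a largest difference of 0.41 at 270.0 kb beyond the salm window. It holds 58 protein-coding genes in Rif1- and 63 in Rif1PP1, among them crol, esc, ab and kek2. The window that was latest in wild-type mitotic follicle cells within 400 kb of the pair, 204 kb beyond the salm start (chr2L:11600001-11700000, chosen after its values were seen), stood at the 71.4th percentile in Rif1-, the 81.4th in Rif1PP1, the 3.89th in Rif1-/+ and the 0.913th in wild type. The same window was at the 25.5th percentile in Rif1- and the 1.22nd in wild-type endocycling follicle cells. In wing discs it was at the 6.62nd percentile in Rif1-, the 29.4th in Rif1PP1 and the 4.44th in wild type. The late block beside salm was thus present in both wild-type tissues. Its window passed the threshold in Rif1- mitotic (0.30), Rif1- endocycling (0.18) and Rif1PP1 mitotic follicle cells (0.39). It did not pass in Rif1- (0.012) or Rif1PP1 wing discs (0.085), or in Rif1-/+ mitotic follicle cells (0.053). The window was chosen as the latest in wild-type mitotic follicle cells, the reference of the mitotic comparisons, and this choice favors positive differences in them. Its deposited ratios were -0.025 in Rif1PP1 and -0.15 in wild-type wing discs. They were -0.23 in Rif1-/+ and -0.39 in wild-type mitotic follicle cells. Without normalization both of these differences are thus over 0.1, so these results depend on the normalization.

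**Figure D3:**
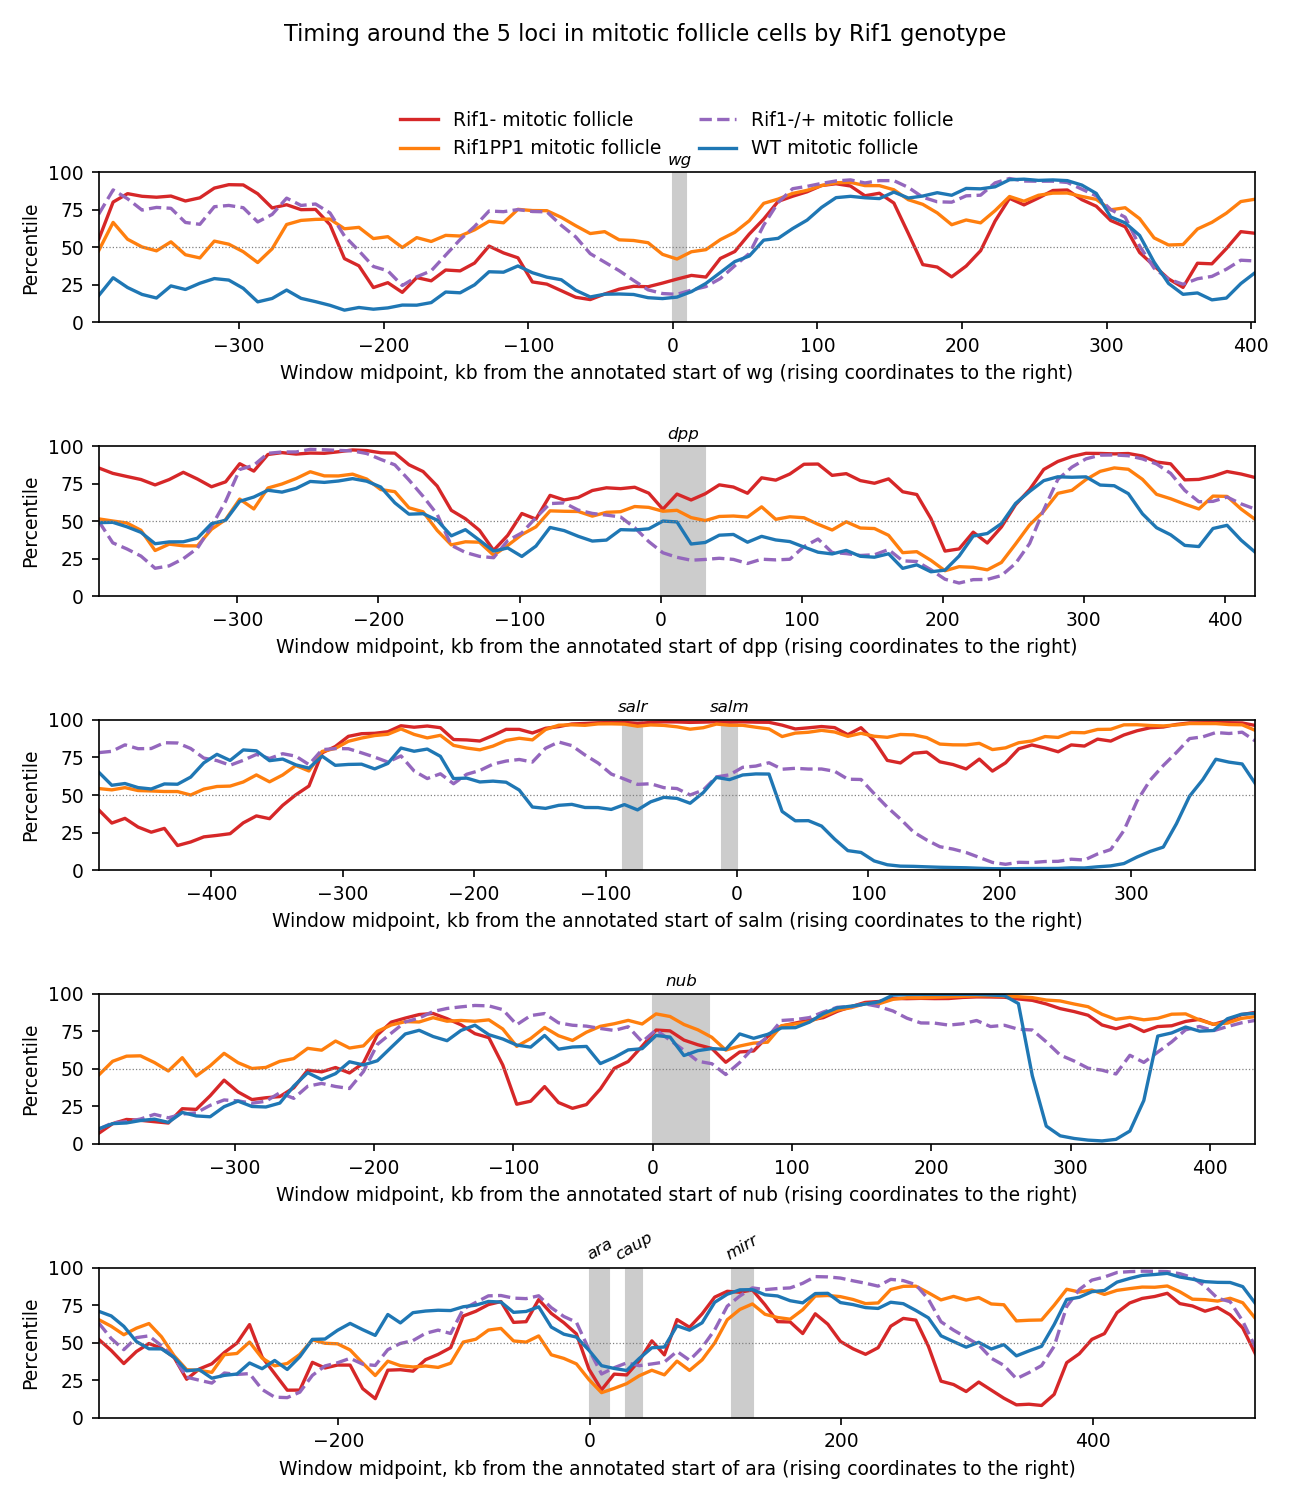
Percentile of the log2 S/G1 ratio (vertical axis) against distance in kb from the annotated start of the first-named gene of each locus (horizontal axis) in mitotic follicle cells of Rif1- (red), Rif1PP1 (orange), Rif1-/+ (dashed purple) and wild type (blue), with gene bodies shaded. At salm and salr the red and orange curves run along the top of the panel and stay high where the blue curve drops to 0.913, whereas at ara and caup the 4 curves dip together.

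In the heterozygote, 0 of 8 passed the threshold as earlier (7.75% of arm windows) or as later (17.8%) against wild type. The differences ran from -0.083 at dpp to 0.032 at salr, with a median of -0.019. dpp had -0.083 log2 S/G1 in Rif1-/+ and 0.021 in wild-type mitotic follicle cells, and passed as later only when the deposited values were compared without normalization, at -0.10. At salm and salr the heterozygote was close to wild type, with differences of -0.0046 and 0.032, the first of which changed sign in 4 of 6 alternative settings. The chromosome from CyO and the one mutated copy of Rif1 cannot be told apart in this genotype.

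In endocycling follicle cells, 4 of 8 passed the threshold between Rif1- and wild type, with 2 in each direction. In this comparison 20.1% of arm windows were earlier and 24.3% later, so the share of members called was close to that of the arms. nub had -0.20 log2 S/G1 (9.31st percentile) in Rif1- and -0.0032 (39.5th) in wild type, a normalized difference of -0.15. mirr had 0.016 (56.6th) in Rif1- and 0.12 (89.4th) in wild type, a normalized difference of -0.11. Both were later in Rif1-. ara had -0.017 (46.7th) in Rif1- and -0.079 (12.7th) in wild type, a normalized difference of 0.11, and caup had 0.023 (58.7th) in Rif1- and -0.047 (20.9th) in wild type, also a normalized difference of 0.11. The differences at ara and caup were opposite in sign to that at mirr, and the split of the Iroquois complex seen in wild-type follicle cells was mostly gone.

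These 4 calls depended on the processing more than those at the spalt pair. The window of nub had the lowest GC content of the 8 (39.4%, the 5.83rd percentile of arm windows), and with the GC trend of each profile removed the difference of nub turned to 0.0044. At ara and caup the difference fell below the threshold in 4 of 6 alternative settings each, and at mirr in 4 of 6, with no change of sign. The run around nub had 26 windows over 350.0 kb with a mean of -0.30 and a deepest value of -0.76, at -100 kb from the nub window, and that from mirr onward had 36 windows over 450.0 kb with a mean of -0.20. salm (-0.012) and salr (0.078) did not pass in endocycling cells, and at salm the sign changed in 4 of 6 settings.

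**Figure D4:**
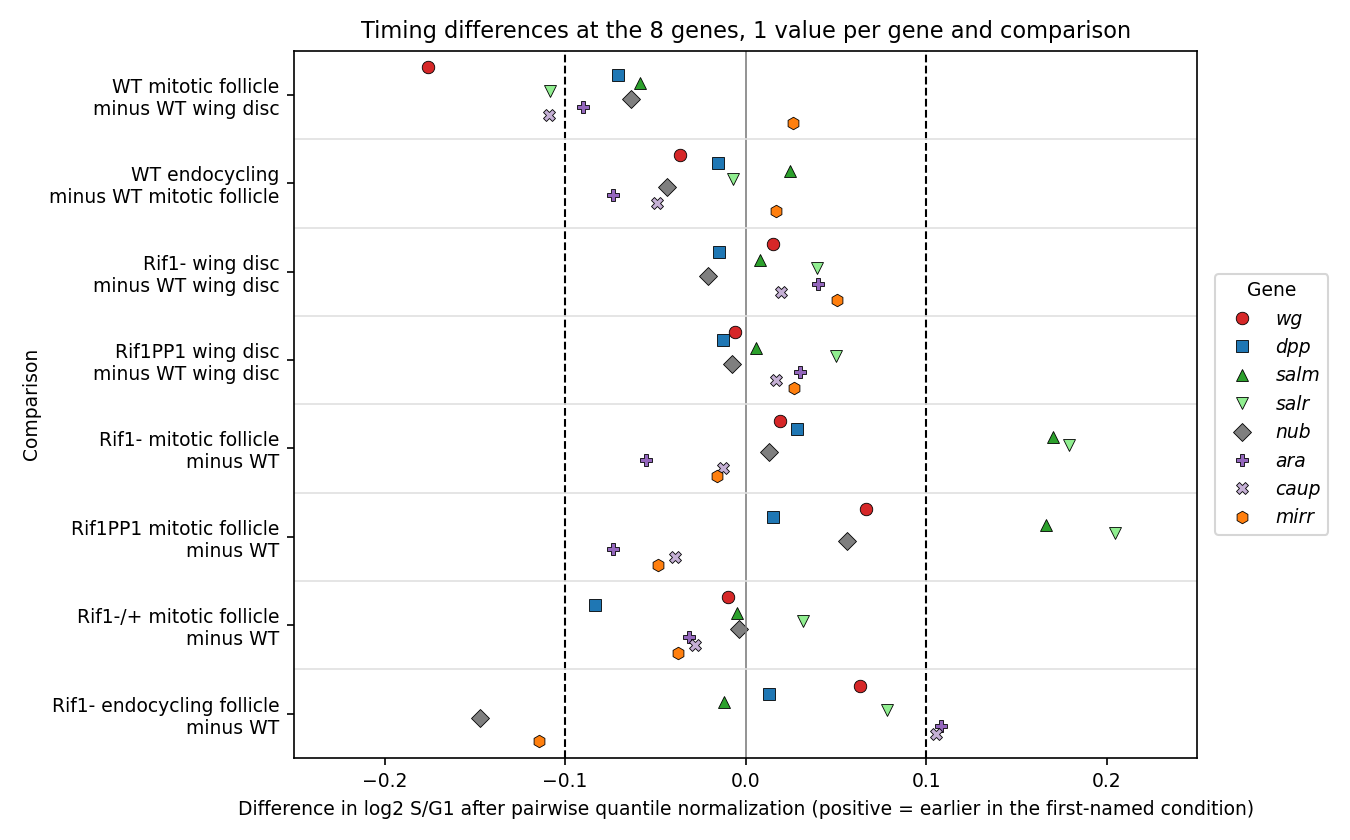
Difference in log2 S/G1 after pairwise quantile normalization (horizontal axis, positive for earlier in the first-named condition) for each gene (symbol) in each of the 8 comparisons (rows), 1 value per gene, with dashed lines at the threshold of 0.1 in each direction. salm and salr stand alone past the right line in Rif1- and Rif1PP1 mitotic follicle cells (0.17 to 0.20), wg stands farthest left in the comparison of tissues (-0.18), and no symbol passes a line in either wing disc comparison.

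Across the 9 conditions, salm and mirr were the only members above the 50th percentile in every one, with lowest values of 60.2 (salm, wild-type mitotic follicle cells) and 56.6 (mirr, Rif1- endocycling follicle cells). Under the alternative settings this was lost for both, since salm stood as low as 45.4 in wild-type and 48.7 in Rif1-/+ mitotic follicle cells and mirr to 46.2 in Rif1- endocycling follicle cells. wg and ara were above it in 3 of 9, the wing discs, and caup in 4 of 9, the wing discs and Rif1- endocycling follicle cells. The range over conditions was widest at wg (80.7 percentile points), ara (79.4) and nub (75.5), and narrowest at mirr (37.2) and salm (38.2). With no replicate values, neighbors in these orders cannot be separated by their spread.

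The 8 windows shared features that the choice of genes did not use. They held 2 to 11 protein-coding genes, against a median of 12 over arm windows, so each of the 8 was below the median, and the salr window, with 2, was at the 3.73rd percentile. Exons covered 10.2% (salm) to 25.8% (dpp) of the window, against an arm median of 33.9%. GC content ran from 39.4% (nub) to 43.4% (dpp) with an arm median of 42.6%, and 7 of 8 were below that median. These windows were thus early in wing discs while holding fewer genes than the arm median, although the dpp window, with 11 (45.5th percentile), was close to it. Where windows of neighbors overlap, as at ara and caup, the same genes are counted in both.

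Other wing disc genes were taken from 7 lists, of 91 genes in all and some in more than 1 list, with 78 that are not among the 8, were annotated and lie on the arms. In wild-type mitotic follicle cells 39 of these 78 lay above the 50th percentile (median 51.1), and in wild-type wing discs 65 of 78 (median 72.6). The difference passed the threshold as later in follicle cells at 32 of 78, beside 18.9% of all arm windows, and as earlier at 1 of 78, beside 13.2% of all arm windows. The 1 was por, which encodes the acyltransferase that lipidates Wnt proteins. por stood at the 95.5th percentile in mitotic follicle cells and the 27.1st in wing discs, a normalized difference of 0.17. The median difference of the 78 was -0.055, and they spanned a wider band in wing discs than the 8, from 10.8 to 98.4. The 32 that were later include Wnt4, Wnt6 and Wnt10, which lie in the run around wg and are not independent of it. They also include the neighbors en and inv, ac and sc, and kni and knrl, whose windows overlap within each pair. The 32 are thus not independent of one another.

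By list, medians in wild-type mitotic follicle cells and wing discs were 54.8 and 70.1 for 17 genes of the Wg pathway, 53.4 and 71.7 for 15 of the Dpp pathway, and 42.5 and 79.3 for 9 of the Hh pathway. They were 44.2 and 77.7 for 12 Notch and wing margin genes and 24.9 and 69.8 for 11 proximodistal and compartment selectors, again with follicle cells first. They were 57.5 and 82.9 for 8 genes of the notum prepattern and 53.5 and 73.7 for 11 vein genes. Each list was later in follicle cells by its median, and the selectors were the latest there. The genes past the threshold as later, against 18.9% of arm windows, were 8 of 11 of the selectors and 6 of 17 in the Wg pathway. These 6 include Wnt4, Wnt6 and Wnt10 from the run around wg, and the Wg pathway also held the 1 gene past it as earlier. The later genes were 4 of 15 in the Dpp pathway, 4 of 9 in the Hh pathway and 6 of 12 of the Notch and margin genes. They were 2 of 8 of the notum genes and 5 of 11 of the vein genes. Neighbors with overlapping windows are counted as separate genes in these shares. They are en and inv in the Hh pathway, ac and sc among the margin genes, and kni and knrl among the vein genes.

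The genes that stood out in each list by the naming rule differed by role. In the Wg pathway it was Wnt6, with -0.24, which lies in the run around wg. In the Dpp pathway dally, a glypican that shapes the Dpp gradient, was the earliest in wing discs (98.4th percentile, 76.4th in mitotic follicle cells), Mad, the transducer of the Dpp signal, was the latest in wing discs (10.8th, and 45.5th in follicle cells), and sax, a type I BMP receptor, differed most, with -0.18. In the Hh pathway cos, a kinesin-like component of Hh signalling, was the earliest in wing discs (96.8th) and disp, which releases the Hh ligand, the latest (12.3rd), and inv, the paralog of engrailed, differed most (-0.19). Among the margin genes sc, a proneural factor, stood at the 5.40th percentile in follicle cells and the 94.8th in wing discs, with -0.31, and sens, a zinc-finger factor of sense organs, was the latest in wing discs (50.4th). Among the selectors al was the earliest (83.5th) and Lim1 the latest in wing discs (39.3rd), and hth, which specifies the hinge, differed most (-0.21). In the notum list ush, a cofactor of Pannier, was the earliest in wing discs (98.0th) and differed most (-0.17), and tup was the latest (41.6th). Among the vein genes net, a bHLH repressor of veins, was the earliest in wing discs (95.5th) and differed most (-0.27), and px was the latest (44.0th).

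**Figure D5:**
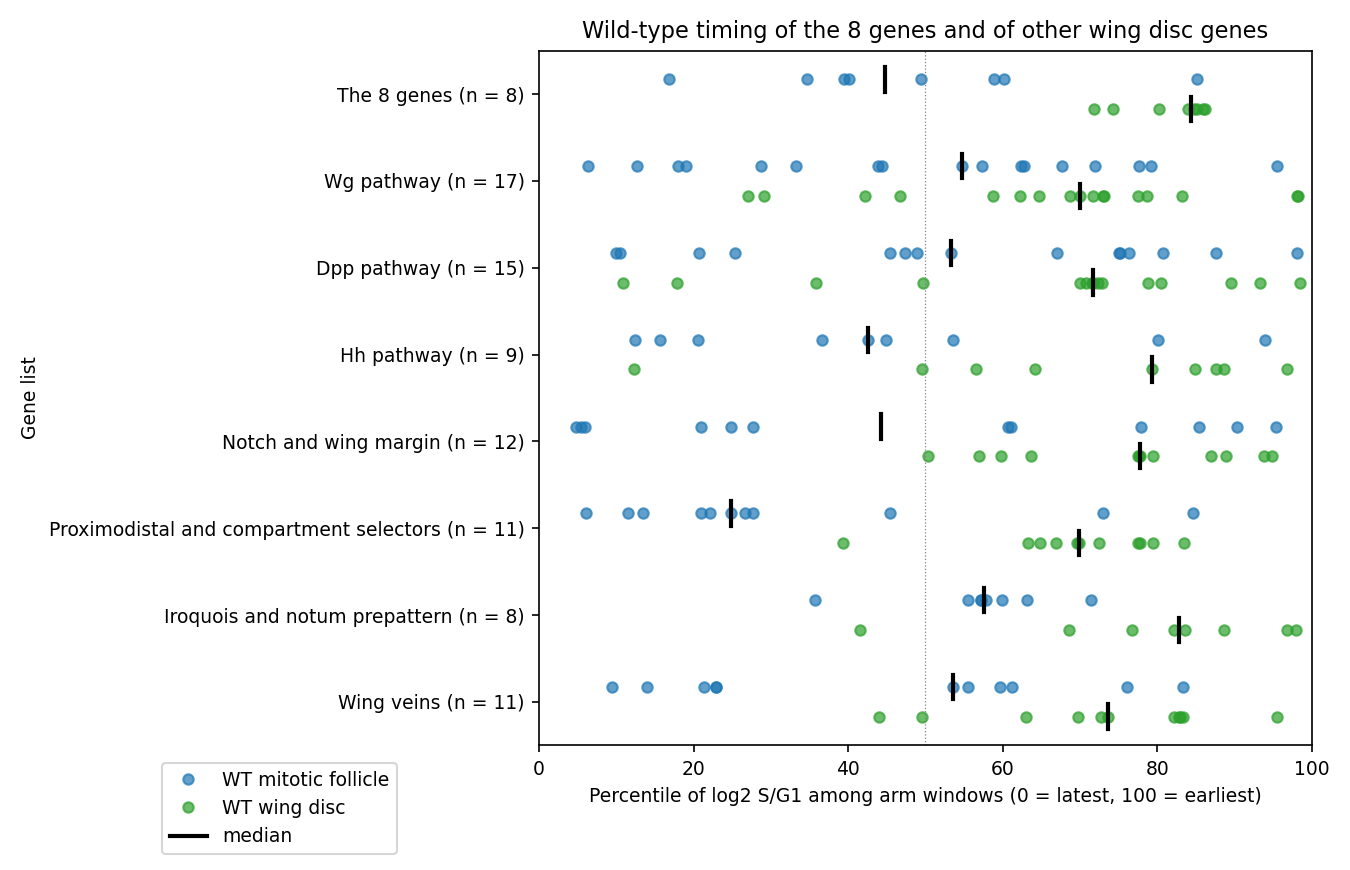
Percentile of the log2 S/G1 ratio (horizontal axis) of the 8 genes and of the other genes of each list (rows), 1 point per gene, in wild-type mitotic follicle cells (blue, upper) and wild-type wing discs (green, lower), with black bars at the medians. At the 1 window chosen per gene, the 8 genes lie from 71.8 to 86.2 in wing discs and spread from 16.9 to 85.2 in follicle cells. The blue median lies left of the green one in each list.

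Among these other genes, those most like each locus were found by the mean absolute difference in percentile over the 9 conditions, with genes within 1 Mb left out. For wg they were knrl (9.15 points) and kni (10.1), neighboring paralogs that act in vein formation, of 75 genes searched with a median of 28.6. For dpp they were tkv (6.96), which encodes the receptor of Dpp, and Dr (7.10), of 77 with a median of 24.4. For the mean of ara, caup and mirr they were tkv (9.50) and nkd (9.74), a feedback inhibitor of Wg signalling, of 75 with a median of 23.1. This mean describes no single member in follicle cells. In wild-type mitotic cells it was 53.1, against 34.7 for ara, 39.5 for caup and 85.2 for mirr. For nub they were Wnt10 (9.45) and tkv (12.7), of 77 with a median of 26.0. For the spalt pair they were Wnt10 (11.7) and wls (14.1), which carries Wnt proteins to the cell surface, of 77 with a median of 30.0. The spalt pair had the least similar partners of the 5 loci. In Rif1- mitotic follicle cells Wnt10 stood at the 68.8th percentile and wls at the 83.2nd, against 98.5 for salm and 97.7 for salr.

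In Rif1- against wild-type mitotic follicle cells, 1 of the 78 other genes passed the threshold as earlier and 9 as later, with the share of all arm windows past it (given in parentheses from here on) at 6.54% for earlier and 14.4% for later. The 1 that was earlier, named after its values were seen, was sd (0.16), the DNA-binding partner of Vestigial, which is on the X. In Rif1PP1 against wild-type mitotic follicle cells, 4 of 78 passed as earlier (11.0%) and 16 as later (17.0%). In the Rif1- endocycling comparison 19 of 78 passed as earlier (20.1%) and 11 as later (24.3%), and in Rif1-/+ mitotic cells 6 as earlier (7.75%) and 14 as later (17.8%). In wing discs 0 of 78 passed as earlier in Rif1- (1.74%) or in Rif1PP1 (3.65%), and 3 in Rif1- (4.49%) and 7 in Rif1PP1 (7.18%) passed as later. None of the 78 passed in either direction between endocycling and mitotic wild-type follicle cells (0.900% of arm windows earlier and 0.533% later).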

How the data were processed

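The authors aligned reads to dm6 with Bowtie 2 (version 2.3.2), kept mapping qualities above 10 with SAMtools (1.9), took depth-normalized read counts of 100-kb windows that slide by 10 kb, and formed the mean S/G1 ratio of 2 S phase samples. The deposited log2 values are these means, before quantile normalization, and hold no replicate values or depth, so the precision is unknown. A ratio can be shifted by copy number and GC content.

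Genes came from the BDGP6 annotation, whose scaffold lengths matched those of the windows. Arm windows left out chromosome 4 (135 windows) and pericentric heterochromatin (1816 windows: 2L from 22 Mb, 2R to 5.7, 3L from 23, 3R to 4.2, X from 22). Python 3.11.15, numpy 2.4.6, pandas 2.3.3 and matplotlib 3.10.9 were used, and the code was tested on simulated data. Alternatives were other windows for a gene, other sets for percentiles, other normalizations, a threshold of 0.2 and removal of the GC trend in 50 bins.

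The members and the gene lists were chosen with earlier results of these data known. Named genes were the 8 members, the earliest, the latest and the most different gene of each list, and the 2 most alike for each locus. 2 listed genes were not used here, 3 lay off the arms, and the RNA samples, and 1 sample whose labels disagree on its phase, were left out.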

Additional observations from a re-analysis of the deposited data

How the results depend on the processing

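Differences at the 8 genes were recomputed under 6 settings, and 361 of 384 values kept their side of the threshold and their sign where past it. The count past the threshold between wild-type mitotic follicle cells and wing discs was 3 as reported, 1 without normalization or centered on the arm median, 5 with the GC trend removed and 0 at a threshold of 0.2. For Rif1- against wild-type endocycling follicle cells it was 4 as reported, 2 without normalization, 1 centered or with all 9 conditions normalized together, 2 with the GC trend removed, 2 with the mean over all windows that overlap the gene and 0 at 0.2. In that comparison nub reversed with the GC trend removed, to 0.0044, and the cause was not tested. With all conditions together it was 1 in place of 0 in both the Rif1- and the Rif1PP1 wing disc comparison, salr in each. Without normalization it was 1 in place of 0 for Rif1-/+, dpp. At 0.2 it was 0 in place of 2 for Rif1- and 1 in place of 2 for Rif1PP1 mitotic follicle cells. Of 432 percentiles recomputed, 52 moved by over 10 points. Without depth or replicate values, no limit can be set on the error of a value, and a difference of 0.1 could lie within the spread between samples. The 100-kb windows blur timing within neighbors and overlap between them. No paired analysis was possible because the deposited columns are means over the replicates.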
